A study of Homo sapiens with 12 samples.

Results

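A set of 10 transcription factor genes that mark the dorsal neural tube and the neural crest was followed in wildtype (WT) and KDM6-deficient human neural cells. The genes are PAX3, PAX7, MSX1, MSX2, TFAP2A, TFAP2B, SNAI2, TWIST1, FOXC1 and LMX1A. They are 10 of 58302 genes counted and were chosen by name with measured values of the same 12 samples already known. Their levels, fold changes and calls are therefore given as a description, without a p-value, and the counts of calls are no independent evidence. All cells came from H1, an established human embryonic stem cell line. WT is the unmodified line. H1-dKO (JMJD3-/-/UTX-/Y) carries deletions of the catalytic JmjC domain in both H3K27 demethylases, UTX (KDM6A) and JMJD3 (KDM6B), made with CRISPR/Cas9 in puromycin-selected clones, and it is a single knockout line. Neural progenitor cells (NPCs) of both genotypes were made by blocking SMAD signalling with SB431542 and dorsomorphin and were expanded with bFGF and EGF. RNA was sequenced from 12 samples, 2 for each of 6 groups. These were WT and dKO NPCs, which the methods place at passage 2, WT and dKO NPCs at passage 4 (P4), and WT and dKO cells after 28 days of spontaneous differentiation (D28) in N2B27 medium with GDNF, BDNF and cAMP. The labels do not say that the 2 samples of a group came from separate cultures, so differences between them may be technical.

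In the embryo, BMP and WNT signals from the surface ectoderm and the roof plate pattern the dorsal edge of the neural plate. Cells of this border switch on PAX3, PAX7, MSX1, MSX2 and AP-2 factors, and some of them then become neural crest, which leaves the neural tube by an epithelial-to-mesenchymal transition (EMT) in which SNAI2 and TWIST1 take part. LMX1A specifies the roof plate, the dorsal midline source of BMP and WNT ligands. Many of these genes are also used outside the nervous system, PAX3 and PAX7 in muscle precursors, TFAP2A in surface ectoderm and FOXC1 in mesenchyme. In bulk RNA, fewer cells that express a gene and less of its RNA in each cell cannot be told apart.

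Total counts were lowest at passage 2 (756942 to 1438807 per sample), intermediate at P4 (3174410 to 4220037) and in dKO-D28 cells (4082248 and 5214431), and highest in WT-D28 cells (8813561 and 10601172). A level of 3 counts over both samples of a group corresponded to 1.42 CPM (counts scaled to the TMM-adjusted size of the library) in WT NPCs and to 0.164 CPM in WT-D28 cells, which covers counting error only, so that low levels were least well resolved at passage 2. The targeted genes were still counted in dKO cells, with KDM6A at 39.8 and 38.9 CPM at passage 2, 31.9 and 27.7 at P4 and 59.4 and 32.4 at D28, against 44.3 to 61.4 CPM over all WT samples. KDM6B lay between 146 and 188 CPM in dKO and between 117 and 205 CPM in WT samples. These counts cover whole genes whereas only the catalytic part was deleted, so they check the labels only weakly. The paper checked the knockout by other means. It reports PCR identification of the deletions and no UTX or JMJD3 expression by qRT-PCR in the matching knockout lines during neural differentiation. The 2 dKO-D28 samples stood apart from each other, with a chi-square between their counts that was 14 times its degrees of freedom, against 1.55 to 3.30 times in the other 5 groups. Levels of the 10 genes at D28 are given for each sample below, as are those of EDNRB and DLX1, where these samples lay far apart.

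The name "neural crest" was checked against other markers. SOX10, the defining factor of migrating crest, had 0 to 8 counts in each sample, and FOXD3, an early crest specifier, had 0 to 2. Both are at or near 0 in every group, so the 10 genes are described below by their names and not as evidence of crest cells. Of 10 markers of paraxial mesoderm and muscle, where PAX3 and PAX7 also act, none passed the filter, with MYF5 at 0 counts in all samples and MYOD1 and MYOG at 0 or 1. MEOX1, a somite factor of the same list, had 30 and 22 counts in dKO against 1 and 1 in WT NPCs at P4, and 17 and 35 in dKO against 1 and 3 in WT cells at D28. The summed level of the list was 8.67 and 7.11 CPM in dKO NPCs at P4 and 6.55 and 9.26 CPM in dKO-D28 cells, and at most 5.66 CPM in the other samples. The defining pluripotency genes POU5F1 and NANOG had no counts in any sample. The other markers of that list were counted. LIN28A, an RNA-binding protein gene of stem cells and early progenitors, had between 79.9 and 87.5 CPM in both genotypes at passage 2, 31.4 and 33.8 CPM in dKO against 1.00 and 0.514 in WT NPCs at P4, and 32.2 and 80.3 CPM in dKO against 0.840 and 0.604 in WT cells at D28. It was called higher in dKO at both later stages (log2 fold changes 5.43 ± 0.68 and 6.26 ± 0.50, SE). DPPA4 had 14.1 and 5.98 CPM in dKO against 0.120 and 0 in WT cells at D28. The part of these markers in the results below was not tested. The neural progenitor genes SOX2 (218 to 515 CPM) and NES (618 to 1783 CPM) were detected in all 12 samples. The list of progenitor markers as a whole did not stay even between the genotypes. Of its 6 tested genes, 0 were called at passage 2. At P4, 2 were called lower in dKO and 0 higher, where 11.2% and 11.1% of all tested genes were. At D28, 1 was called higher and 1 lower, where 12.4% and 11.7% of all tested genes were.

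The promoters were compared because several of the 10 genes shared their pattern over the samples while the AP-2 genes did not follow it. RefSeq promoter windows (GRCh38.p14, 250 bases before to 50 after the start) were at hand for 8 of the 10 genes. SNAI2 and TWIST1 had no entry. TFAP2A and LMX1A had 2 entries each, of which only the first was searched and printed. The 250 bases upstream of the start are printed for MSX2 and FOXC1, the pair of genes with the most similar levels over the samples, and for LMX1A and TFAP2A, a roof plate factor and an AP-2 gene. Each runs 5′ to 3′ on the strand of the gene, and capitals mark matches, on either strand, to the 4 motifs searched.
MSX2 (chr5:174724332-174724581, plus strand): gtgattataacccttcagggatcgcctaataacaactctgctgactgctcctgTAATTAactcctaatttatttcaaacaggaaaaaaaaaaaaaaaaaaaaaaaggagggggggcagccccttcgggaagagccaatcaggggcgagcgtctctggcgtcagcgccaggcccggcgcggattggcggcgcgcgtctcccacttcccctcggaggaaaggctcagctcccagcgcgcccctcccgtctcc
FOXC1 (chr6:1609665-1609914, plus strand): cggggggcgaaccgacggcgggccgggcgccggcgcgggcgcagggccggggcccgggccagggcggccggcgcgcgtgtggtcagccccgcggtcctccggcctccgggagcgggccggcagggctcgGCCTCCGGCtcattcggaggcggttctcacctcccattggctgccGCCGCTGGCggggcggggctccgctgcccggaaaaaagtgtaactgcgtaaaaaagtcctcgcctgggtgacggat
LMX1A (chr1:165356716-165356965, minus strand): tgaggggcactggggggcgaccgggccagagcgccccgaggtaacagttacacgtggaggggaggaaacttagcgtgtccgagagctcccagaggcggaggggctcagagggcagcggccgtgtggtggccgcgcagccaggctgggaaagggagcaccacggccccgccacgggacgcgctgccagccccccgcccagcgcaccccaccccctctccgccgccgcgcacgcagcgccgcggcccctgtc
TFAP2A (chr6:10419660-10419909, minus strand): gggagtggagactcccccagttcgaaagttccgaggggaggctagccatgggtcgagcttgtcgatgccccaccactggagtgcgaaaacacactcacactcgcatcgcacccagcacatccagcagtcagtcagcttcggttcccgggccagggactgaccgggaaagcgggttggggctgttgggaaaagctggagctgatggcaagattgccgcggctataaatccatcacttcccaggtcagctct
The AP-2 motif GCCNNNGGC matched at 2 places in the FOXC1 window, which start 121 and 76 bases before the gene start, and at none in the other 7 windows. It occurs in 23.2% of all 34943 RefSeq promoter windows of this length. The homeodomain core TAATTA, present in 4.8% of windows, matched once, in MSX2, and starts 197 bases before the gene start. CAGGTG, an E-box bound by SNAI-type factors and found in 20.6% of windows, and GTCACGC, a core bound by PAX factors and found in 2.5%, had no match in the 8 windows. The matched motifs do not overlap one another. The windows held 5 CpG dinucleotides in TFAP2B, 18 in TFAP2A, 21 in PAX3 and in PAX7, 24 in MSX2, 31 in MSX1, 32 in LMX1A and 40 in FOXC1, against a median of 14 over all windows. These matches describe the letters of the windows and do not show that a factor binds there.

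Of the 10 genes, 9 passed the filter of a mean of 20 counts over the 12 samples and were fitted with edgeR's quasi-likelihood model, among 13454 genes in all. TWIST1, with a mean of 2.83 counts, was not fitted. The call rule was that of the study's methods, a p under 0.05 before adjustment together with more than a 2-fold difference. In dKO NPCs at P4, 7 of the 9 genes were called higher than in WT NPCs at P4 (PAX3, PAX7, MSX1, MSX2, SNAI2, FOXC1 and LMX1A) and none lower, where 11.1% of all tested genes were called higher and 11.2% lower. At D28 all 9 were called higher in dKO cells, against 12.4% of all tested genes (11.7% were called lower). At passage 2 only PAX7 and FOXC1 were called higher, against 2.59% of all tested genes, and none lower, against 1.83%. The 7 and 9 calls remained under Benjamini-Hochberg adjustment, and the 2 at passage 2 did not. Without WT NPC sample 1 both calls at passage 2 were lost (log2 fold changes 1.35 for PAX7 and 0.66 for FOXC1), and that of FOXC1 also without dKO NPC sample 2 (0.97). Because these values chose the genes, nothing is read from the counts. The genes nearest the filter of 20 counts were TFAP2A, just inside with a mean of 20.8, and TWIST1, outside it.

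**Figure D1:**
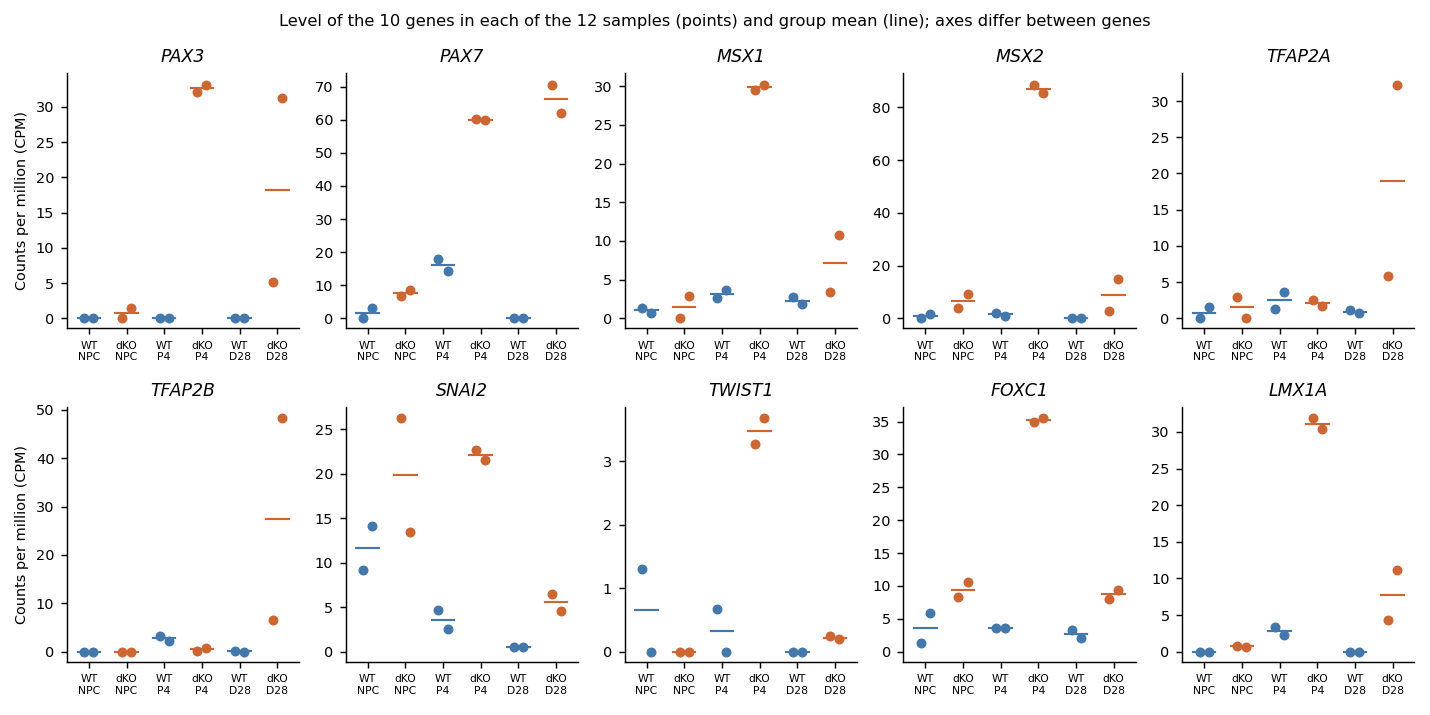
Level of each of the 10 genes in CPM (vertical axis, linear, scaled separately for each gene) in the 12 samples of the 6 groups, with a point for each sample and a line at the group mean, WT in blue and dKO in orange. PAX3, MSX1, MSX2, FOXC1 and LMX1A have their highest group mean in dKO NPCs at P4, whereas TFAP2A and TFAP2B are highest in dKO-D28 cells, where their 2 samples lie far apart.

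PAX3 and PAX7 encode paired-box factors of the neural plate border and of the dorsal neural tube. PAX3 (ENSG00000135903; chromosome 2, 222199887 to 222298998, minus strand) had no counts in any of the 6 WT samples. In dKO NPCs at P4 it had 137 and 135 counts, which are 32.1 and 33.1 CPM. In dKO NPCs at passage 2 it had 0 and 2 counts, and in dKO-D28 cells 21 and 162 counts, which are 5.09 and 31.3 CPM. All dKO samples at P4 and D28 therefore lay above all WT samples, and the dKO samples at passage 2 did not separate from WT. PAX3 was at least 74.8-fold higher in dKO than in WT NPCs at P4 and at least 120-fold higher at D28, with 3 counts over both WT samples taken as the floor. At passage 2 both genotypes were at or under that floor, and no fold is given.

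PAX7 (ENSG00000009709; chromosome 1, 18630846 to 18748866, plus strand) was the only one of the 9 fitted genes with its highest mean in dKO-D28 cells and similar levels in both samples there. It had 0 and 2.98 CPM in WT NPCs and 6.76 and 8.49 CPM in dKO NPCs at passage 2. At P4 it had 60.2 and 59.8 CPM in dKO against 18.0 and 14.4 in WT NPCs. Its level at D28 was 70.5 and 62.1 CPM in dKO cells, and WT cells had no counts. The genotypes did not overlap at any of the 3 stages. The log2 fold change of dKO over WT was 2.00 ± 0.65 (SE) at passage 2 and 1.90 ± 0.20 (SE) at P4, and PAX7 was at least 401-fold higher in dKO cells at D28. Unlike PAX3, PAX7 was thus counted in WT NPCs at P4, with 54 and 56 counts.

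MSX1 and MSX2 encode homeobox repressors that respond to BMP signals and act at the neural plate border and in the roof plate. MSX2 (ENSG00000120149; chromosome 5, 174724582 to 174730896, plus strand) had the highest level per length of the 10 genes in dKO NPCs at P4, a mean of 39.1 RPKM (CPM per kilobase of exon), from 88.5 and 85.3 CPM. WT NPCs at P4 had 2.00 and 1.03 CPM, and the log2 fold change was 5.87 ± 0.72 (SE). At passage 2 MSX2 had 0 and 2 counts in WT and 5 and 13 counts in dKO NPCs, a ratio of 6.91 with a 95% counting interval of 1.65 to 61.4. In D28 cells it had no counts in WT and 12 and 77 counts in dKO cells (2.91 and 14.9 CPM), at least 58.2-fold higher. The genotypes did not overlap at any stage, although the call rule was not met at passage 2. Other ways of fitting did call MSX2 there. These were DESeq2 (log2 fold change 2.85), a fit of only the groups compared (2.66) and a filter of at least 1 count (2.76).

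MSX1 (ENSG00000163132; chromosome 4, 4859665 to 4863936, plus strand) was counted in all WT groups at low levels. It had 29.5 and 30.2 CPM in dKO against 2.67 and 3.60 in WT NPCs at P4, a log2 fold change of 3.22 ± 0.47 (SE). At D28 it had 3.39 and 10.8 CPM in dKO against 2.76 and 1.81 in WT cells, a log2 fold change of 1.68 ± 0.48 (SE). At D28 the lower dKO sample was close to the higher WT sample, and without dKO-D28 sample 2 the log2 fold change was 0.58 and the call was lost. At passage 2 MSX1 had 1 and 1 counts in WT and 0 and 4 counts in dKO NPCs, and the groups overlapped.

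LMX1A (ENSG00000162761; chromosome 1, 165201867 to 165356715, minus strand), the LIM homeobox factor that specifies roof plate, had no counts in WT NPCs at passage 2 or in WT-D28 cells. It had 31.9 and 30.4 CPM in dKO against 3.34 and 2.31 in WT NPCs at P4, a log2 fold change of 3.48 ± 0.40 (SE). After 28 days there were 18 and 58 counts in dKO cells (4.36 and 11.2 CPM), at least 49.7-fold above WT. In dKO NPCs at passage 2 it had 1 count in each sample, and no fold is given. LMX1A thus separated the genotypes at P4 and D28, with its highest level in dKO NPCs at P4.

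FOXC1, SNAI2 and TWIST1 encode a forkhead, a zinc-finger and a basic helix-loop-helix factor of crest and mesenchyme. FOXC1 (ENSG00000054598; chromosome 6, 1609915 to 1613897, plus strand) had 8.26 and 10.6 CPM in dKO against 1.31 and 5.96 in WT NPCs at passage 2, a log2 fold change of 1.16 ± 0.52 (SE). It had 34.9 and 35.6 CPM in dKO against 3.68 and 3.60 in WT NPCs at P4, a log2 fold change of 3.27 ± 0.31 (SE). At D28 it had 7.999 and 9.46 CPM in dKO against 3.36 and 2.11 in WT cells, a log2 fold change of 1.69 ± 0.30 (SE). FOXC1 was higher in dKO cells at all 3 stages without overlap, and most so at P4. Its exons share 20 of 3934 windows of 50 bases with FOXC2, whereas PAX3 and PAX7, MSX1 and MSX2, TFAP2A and TFAP2B, SNAI2 and SNAI1, TWIST1 and TWIST2, and LMX1A and LMX1B share none, so reads of these paralogs could rarely be confused.

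SNAI2 (ENSG00000019549; chromosome 8, 48917598 to 48921740, minus strand), which represses E-cadherin, was the one gene of the 10 above 1 RPKM in WT NPCs at passage 2. It had 26.3 and 13.4 CPM in dKO against 9.14 and 14.2 in WT NPCs at passage 2, and these groups overlapped, with a log2 fold change of 0.70 ± 0.40 (SE). WT cells had 4.68 and 2.57 CPM at P4 and 0.480 and 0.503 CPM at D28. In dKO cells the level was 22.7 and 21.6 CPM at P4 and 6.55 and 4.63 CPM at D28. The level in WT was thus lower at each later stage, while dKO NPCs at P4 had about the level of passage 2. The log2 fold change of dKO over WT was 2.64 ± 0.35 (SE) at P4 and 3.41 ± 0.47 (SE) at D28.

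TWIST1 (ENSG00000122691; chromosome 7, 19020991 to 19117636, minus strand) was near the limit of detection in 5 of the 6 groups, with 0 to 2 counts per sample. Only dKO NPCs at P4 had more, with 14 and 15 counts (3.28 and 3.68 CPM), against 2 and 0 in WT. The ratio was 11.96, with a 95% counting interval of 3.03 to 104.

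TFAP2A and TFAP2B encode AP-2 factors, which act at the neural plate border, in crest and in surface ectoderm. They followed another pattern than the other 8 genes. TFAP2A (ENSG00000137203; chromosome 6, 10393186 to 10419659, minus strand) had 2.58 and 1.72 CPM in dKO against 1.34 and 3.60 in WT NPCs at P4, and the groups overlapped, with a log2 fold change of -0.26 ± 1.24 (SE). At passage 2 it had 0 and 2 counts in WT and 4 and 0 in dKO NPCs. At D28 it had 5.82 and 32.2 CPM in dKO against 1.08 and 0.704 in WT cells, a log2 fold change of 4.42 ± 0.90 (SE). It was thus separated by genotype at D28 only, where the 2 dKO samples lay 5.54-fold apart.

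TFAP2B (ENSG00000008196; chromosome 6, 50818723 to 50847619, plus strand) had no counts at passage 2 in either genotype. At P4 it had 10 and 9 counts in WT and 1 and 3 counts in dKO NPCs, the one case of the 10 genes in which both dKO samples lay below both WT samples. The log2 fold change was -2.46 ± 2.21 (SE) and was not called. DESeq2 called it, with -2.57, and so did a fit of only the groups compared, with -2.46. At D28 it had 1 and 0 counts in WT and 27 and 250 counts in dKO cells (6.55 and 48.3 CPM), a ratio of 544 with a counting interval of 96.8 to 21560. TFAP2B therefore had opposite orders of the genotypes at P4 and D28, of which the order at P4 rests on few counts.

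**Figure D2:**
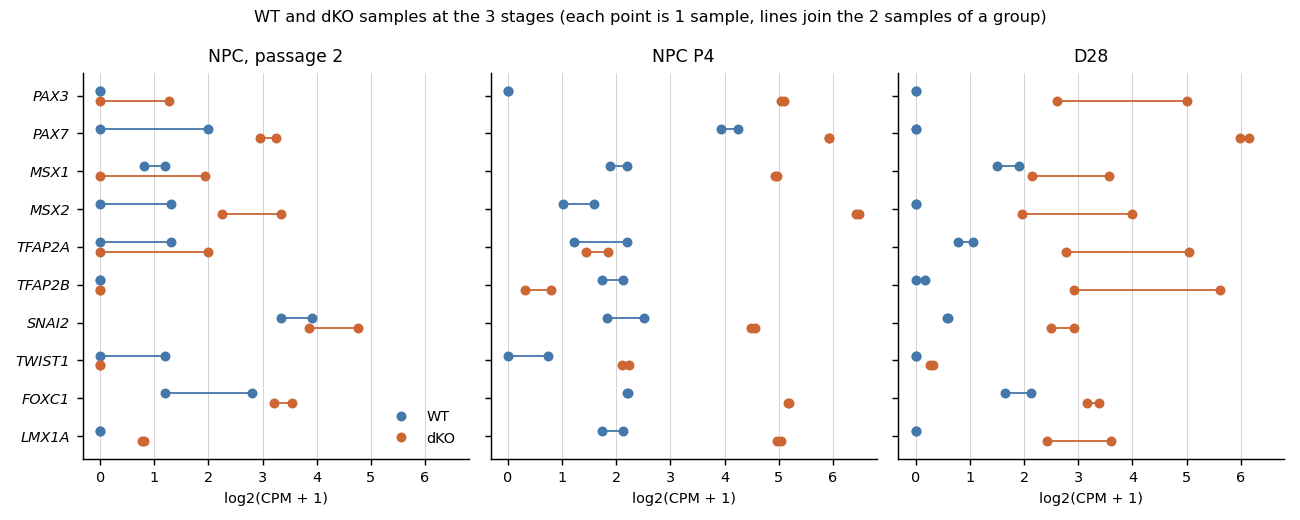
Level of the 10 genes on a log2(CPM + 1) scale (horizontal axis) in NPCs at passage 2 (left), NPCs at P4 (middle) and D28 cells (right). Each point is 1 sample, lines join the 2 samples of a group, WT is blue and dKO orange. At P4 the points of the genotypes overlap for TFAP2A, and the dKO points of TFAP2B lie left of the WT points. The share of all tested genes whose dKO and WT samples do not overlap was not computed, so no count is read from the figure.

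Per length, the order of the genes differed between the stages. In dKO NPCs at P4 the mean level was 39.1 RPKM for MSX2, 14.1 for MSX1, 9.27 for PAX7, 8.85 for FOXC1, 7.44 for LMX1A, 6.75 for SNAI2, 4.11 for PAX3 and 1.74 for TWIST1, and below 1 for both AP-2 genes. In dKO-D28 cells PAX7 came first at 10.3 RPKM and TFAP2B next at 4.45, and MSX1 was at 3.35. In WT NPCs at passage 2 SNAI2 was highest, at 3.55 RPKM, and the other 9 genes were below 1. In WT-D28 cells MSX1, at 1.08 RPKM, was the only one of the 10 above 1. The gene with the highest level therefore changed from SNAI2 to MSX2 and PAX7 between these groups.

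Across the 6 groups, the order of the mean CPM put dKO NPCs at P4 first for 7 genes (PAX3, MSX1, MSX2, SNAI2, TWIST1, FOXC1 and LMX1A) and dKO-D28 cells first for the other 3. For PAX3 and LMX1A, dKO-D28 cells came next and did not overlap with the groups on either side. For SNAI2 the first 3 groups, dKO NPCs at P4 and both genotypes at passage 2, overlapped with their neighbours in the order. For MSX1 the 5 groups below dKO NPCs at P4 overlapped with their neighbours, and for FOXC1 dKO NPCs at passage 2 overlapped with dKO-D28 cells, and WT NPCs at passage 2 overlapped with each of the other WT groups, which did not overlap with one another. The lowest group mean belonged to WT-D28 cells for PAX3, PAX7, MSX2, SNAI2, TWIST1, FOXC1 and LMX1A, in several cases together with other groups at 0.

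The 2 stages that followed passage 2 were then compared with it within each genotype. These comparisons share their passage 2 samples. In WT cells, PAX7 and LMX1A were called higher at P4 than at passage 2 and SNAI2 lower, where 10.3% of all tested genes were called higher and 9.49% lower. The log2 fold change was 3.07 ± 0.51 (SE) for PAX7 and -1.78 ± 0.46 (SE) for SNAI2, and LMX1A was at least 1.94-fold higher. Without WT NPC sample 2 the calls of SNAI2 (log2 fold change -1.37) and LMX1A were lost. Between passage 2 and D28 no gene was called higher in WT, against 12.9% of all tested genes, and SNAI2 and PAX7 were called lower, against 11.5%. SNAI2 had a log2 fold change of -4.54 ± 0.54 (SE). The call of PAX7 rests on 4 counts in WT NPC sample 2, and without that sample both groups are at 0.

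In dKO cells, PAX3, PAX7, MSX1, MSX2, FOXC1 and LMX1A were called higher at P4 than at passage 2 and none lower, where 4.61% of all tested genes were called higher and 5.22% lower. The log2 fold change was 4.33 ± 0.69 (SE) for MSX1, 3.73 ± 0.68 (SE) for MSX2, 2.97 ± 0.28 (SE) for PAX7 and 1.89 ± 0.31 (SE) for FOXC1. PAX3 and LMX1A had 2 counts each at passage 2, and their ratios were 44.7 (counting interval 12.3 to 371) and 42.8 (11.7 to 355). The call of PAX3 was lost under adjustment, with DESeq2 and when any of the 4 samples was left out. SNAI2, with a log2 fold change of 0.17 ± 0.31 (SE), and TFAP2A, with 0.55 ± 1.85 (SE), overlapped between the stages.

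At D28, dKO cells had PAX7, MSX1, TFAP2A, TFAP2B and LMX1A called higher than dKO NPCs at passage 2, against 4.01% of all tested genes, and SNAI2 lower, against 3.14%. PAX7 had a log2 fold change of 3.11 ± 0.28 (SE) and SNAI2 of -1.83 ± 0.36 (SE). TFAP2A had one of 3.71 ± 1.303 (SE), MSX1 one of 2.31 ± 0.84 (SE), and TFAP2B, at 0 at passage 2, was at least 27.2-fold higher. The calls of MSX1, TFAP2A and TFAP2B were lost under adjustment and in a fit of only these 2 groups, which leaves 3 calls. FOXC1, with a log2 fold change of -0.11 ± 0.36 (SE), was at about its level of passage 2.

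The difference between the knockout effects at 2 stages was computed as a contrast of the same fit. Between P4 and passage 2 it met the call rule for SNAI2 and FOXC1, where it did so in either direction for 19.3% of all tested genes. The difference on the log2 scale was 1.95 ± 0.55 (SE) for SNAI2 and 2.11 ± 0.67 (SE) for FOXC1. For PAX7 it was -0.10 ± 0.66 (SE), which is within that error of 0 and does not show that the effects were equal. Between D28 and passage 2 it met the rule for SNAI2, at 2.71 ± 0.64 (SE), and for PAX7, whose size cannot be given since WT-D28 cells had no counts, against 23.2% of all tested genes. For FOXC1 it was 0.53 ± 0.63 (SE). Without WT NPC sample 2 neither SNAI2 nor FOXC1 was called between P4 and passage 2. For PAX3, TFAP2B and LMX1A at least 1 of the 4 groups had no counts, and for MSX1, MSX2 and TFAP2A the lowest group had at most 2, so their difference was not estimable or had a standard error above 1.

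The 2 dKO-D28 samples were compared gene by gene. Sample 2 had more of 6 of the 10 genes, 6.14 times as much PAX3 (95% counting interval 3.89 to 10.2), 7.37 times as much TFAP2B (4.95 to 11.4), 5.54 times as much TFAP2A (3.60 to 8.89), 5.11 times as much MSX2 (2.76 to 10.3), 3.19 times as much MSX1 (1.75 to 6.20) and 2.57 times as much LMX1A (1.49 to 4.63). PAX7 (0.881, 0.750 to 1.04), SNAI2 (0.708, 0.391 to 1.27) and FOXC1 (1.18, 0.745 to 1.90) had intervals that included 1. TWIST1 had 1 count in each sample. PAX3 and PAX7 thus differed in this respect, PAX3 being far higher in sample 2 and PAX7 not. Several markers of surface ectoderm were higher in sample 2 as well. TP63, the master factor of stratified epithelium, had 23 and 93 counts, GATA3 21 and 98, and the simple-epithelium keratin KRT8 392 and 665 CPM. KRT5, a basal keratin, went the other way, with 56 and 14 counts. Over the 9 markers of epidermis and placode the summed level was 646 and 1086 CPM, and over the 6 neuron markers 927 and 521 CPM. The part of these in the results at D28 was not tested. With dKO-D28 sample 1 left out 9 of the 9 fitted genes were called at D28, and with sample 2 left out 8.

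**Figure D3:**
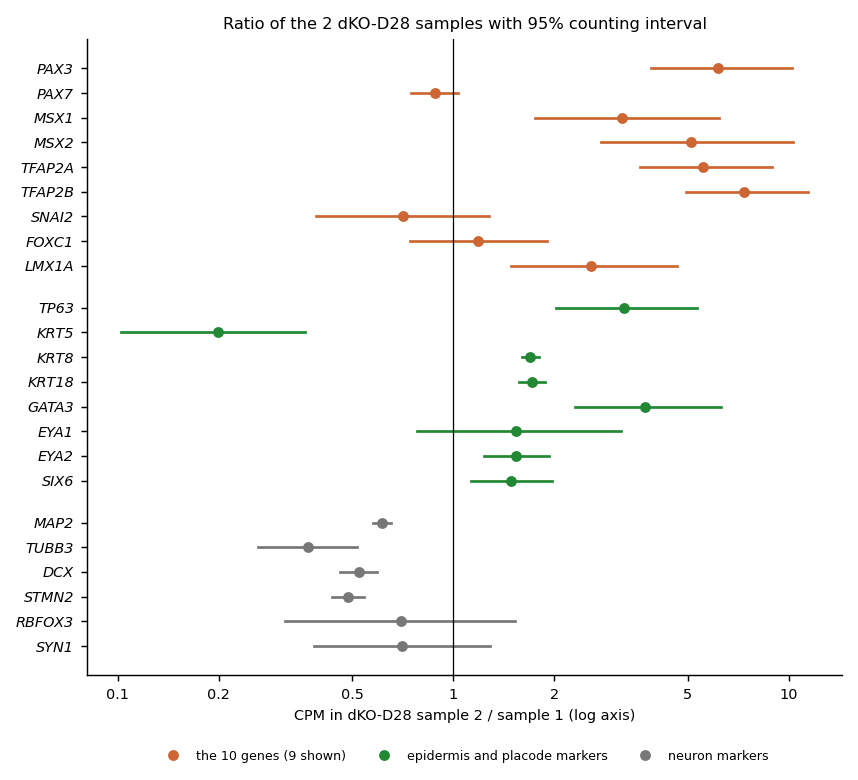
Ratio of the CPM in dKO-D28 sample 2 to that in sample 1 (horizontal axis, log scale) with its 95% counting interval, for 9 of the 10 genes (orange), 8 markers of epidermis and placode (green) and 6 neuron markers (grey). TFAP2B, PAX3, TFAP2A and MSX2 lie at 5.11 or above, PAX7, SNAI2 and FOXC1 have intervals that include 1, and the ratios of the neuron markers lie between 0.370 and 0.704.

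For each fitted gene, the protein-coding gene with the most similar level over the 12 samples was looked up by Pearson's r of log2(CPM + 1). The samples share their groups and libraries, so these values describe the pattern only. FOXC1 was most like COL1A2, a type I collagen chain (r = 0.98), which had 806 and 803 CPM in dKO NPCs at P4 and 56.1 and 56.3 CPM in WT. LMX1A was most like TPBG, the trophoblast glycoprotein gene (r = 0.98), with 557 and 538 CPM in dKO and 59.8 and 60.9 CPM in WT NPCs at P4. MSX2 was most like GSTP1 (r = 0.98), a glutathione transferase gene. PAX7 was most like WNT7B, which encodes a WNT ligand (r = 0.97), SNAI2 like CRISPLD1 (r = 0.97), PAX3 like DMRTA1 (r = 0.96), MSX1 like CPT1A (r = 0.95), TFAP2B like NAALADL2 (r = 0.95) and TFAP2A like ACSM3 (r = 0.88). Among the 9 genes themselves, MSX2 and FOXC1 were most alike (r = 0.97), followed by PAX3 and LMX1A (r = 0.91). TFAP2A and TFAP2B were alike (r = 0.87), and SNAI2 had r of -0.02 with TFAP2A and -0.17 with TFAP2B.

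Most genes that overlap the 10 genes or lie next to them had few counts. The antisense transcript CCDC140, which overlaps PAX3, had at most 2 counts in a sample, TFAP2A-AS1 at most 3, and LMX1A-AS2 had 9 and 6 counts in dKO and 3 and 1 in WT NPCs at P4. Whether the counting used strand is not given in the sources used here, so reads of a gene and its antisense partner may not be separated, but these counts are small beside those of the genes. Only HDAC9, next to TWIST1, and GMDS, next to FOXC1, passed the filter. HDAC9 fell in dKO NPCs at P4, by 1.58 on the log2 scale (adjusted p = 4.62e-07 from edgeR), where TWIST1 had more counts in dKO. GMDS had log2 fold changes of 0.22 at P4 and 0.70 at D28 and was not called, whereas FOXC1 was called at both.

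The other genes of the dorsal and crest programme were taken from 7 lists of 93 genes, of which 57 passed the filter. In dKO NPCs at P4, 28 of the 57 rose and 12 fell (11.1% and 11.2% of all tested genes did), with a median log2 fold change of 1.12 against 0.02 over all tested genes. At D28, 29 rose and 8 fell (12.4% and 11.7% of all tested genes), with a median of 1.09 against 0.00. At passage 2, 12 rose and 2 fell (2.59% and 1.83% of all tested genes), with a median of 0.08 against 0.00, and 7 of these 14 also passed the adjusted threshold. Without WT NPC sample 1 the 14 calls at passage 2 became 8. At P4, 39 of the 40 calls passed it, and at D28 all 37.

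**Figure D4:**
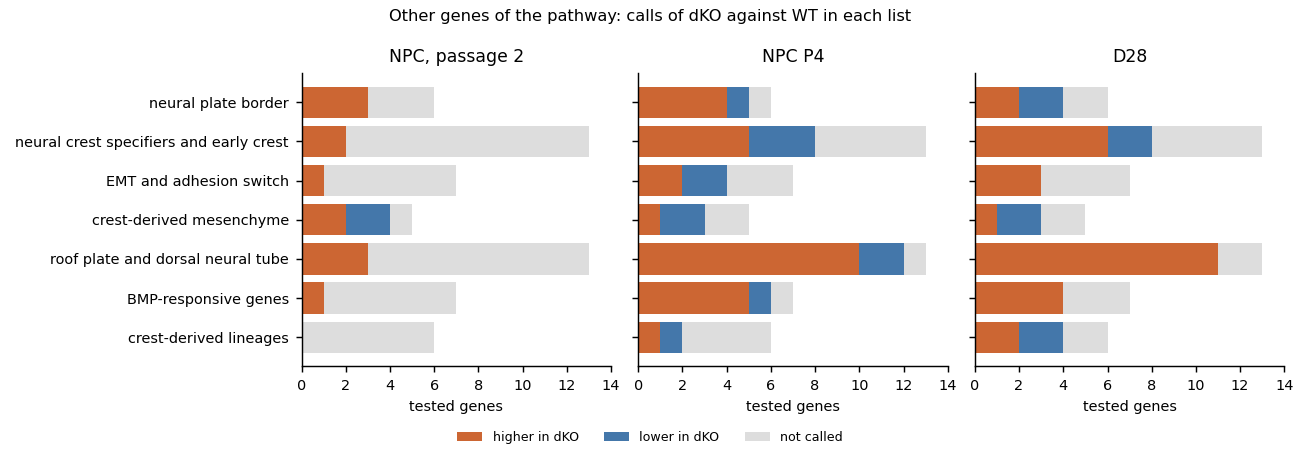
Number of tested genes (horizontal axis) of each of the 7 lists that were called higher in dKO (orange), called lower in dKO (blue) or not called (grey), in NPCs at passage 2 (left), NPCs at P4 (middle) and D28 cells (right). The roof plate and dorsal neural tube list has 10 rises of 13 tested genes at P4 and 11 at D28.

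Roof plate and dorsal neural tube genes were the list with the most rises. At P4, 10 of its 13 tested genes rose in dKO NPCs and 2 fell, with a median of 1.83, and at D28 11 rose and none fell, with a median of 2.72. BMP4, a dorsalising ligand, had 20.1 and 17.2 CPM in dKO against 0.668 and 0.257 in WT NPCs at P4, a ratio of 42.9 with a counting interval of 14.4 to 210 (adjusted p = 1.855e-05). GDF7, the roof plate ligand of the BMP family, had 53.6 and 53.5 CPM in dKO against 2.34 and 2.06 in WT NPCs at P4, a log2 fold change of 4.60 ± 0.68 (SE; adjusted p = 0.000504), and was named after its values were seen. The fall with the largest size was LHX9, a marker of dorsal interneurons, with a log2 fold change of -2.04 ± 0.32 (SE; adjusted p = 6.37e-05). RSPO3, a secreted enhancer of WNT signalling, had the largest rise at D28, with 12.1 and 18.3 CPM in dKO against 0.360 and 0 in WT cells, a ratio of 94.9 with an interval of 31.8 to 466 (adjusted p = 1.33e-08). At passage 2 GDF10 had the largest rise, a log2 fold change of 2.77 ± 0.53 (SE; adjusted p = 0.0223), and 3 of the 13 genes rose and none fell. Genes that mark dorsal progenitor domains and the neurons born from them stayed rare, with ATOH1 at 1 and 5 counts and OLIG3 at 7 and 8 counts in dKO NPCs at P4, both named here after their values were seen.

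BMP-responsive genes also rose, 5 of 7 at P4 with 1 that fell, and 4 of 7 at D28 with none that fell, with medians of 1.80 and 1.09. Summed over the 8 genes of the list, however, the level at P4 was lower in dKO, 463 and 481 CPM against 532 and 519 in WT NPCs. At D28 the sum was 467 and 457 CPM in dKO against 375 and 382 in WT cells. SMAD6, a feedback inhibitor of the pathway, had 28.8 and 26.2 CPM in dKO against 3.01 and 2.31 in WT NPCs at P4, a log2 fold change of 3.38 ± 0.35 (SE; adjusted p = 8.64e-07). ID4, an inhibitor of differentiation factors, fell, with a log2 fold change of -1.31 ± 0.14 (SE; adjusted p = 1.01e-06). At D28 ID1 rose most, from 8.88 and 7.24 CPM in WT to 67.6 and 127 CPM in dKO cells, a log2 fold change of 3.60 ± 0.30 (SE; adjusted p = 2.64e-06). At passage 2 SMAD7 was the only one of the list called, and it did not pass adjustment (log2 fold change 1.07 ± 0.42 SE, adjusted p = 0.225).

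**Figure D5:**
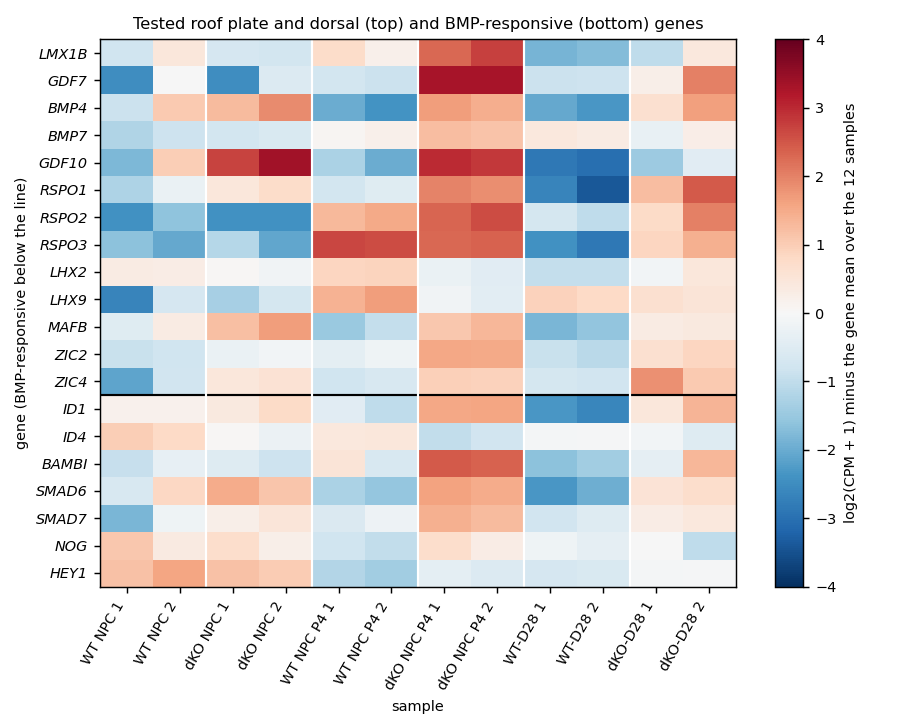
Level of the 13 tested roof plate and dorsal genes (above the line) and the 7 tested BMP-responsive genes (below it) in the 12 samples (columns), as log2(CPM + 1) minus the mean of the gene over the samples, red above and blue below the mean. All rows are red in both dKO NPC P4 samples,, except those of LHX2, LHX9, ID4 and HEY1.

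Neural plate border genes rose in 4 and fell in 1 of 6 tested cases at P4, and rose in 2 and fell in 2 at D28. GBX2, a border and hindbrain factor, had the largest rise at P4 (log2 fold change 2.72 ± 0.31 SE, adjusted p = 3.29e-06). TFAP2C, the third AP-2 gene tested, fell there (log2 fold change -2.17 ± 0.51 SE, adjusted p = 0.00966), with 7.50 and 11.04 CPM in dKO against 40.4 and 42.6 in WT NPCs. At D28 TFAP2C had no counts in WT and 6.55 and 23.0 CPM in dKO cells and was at least 95.5-fold higher, so the genotypes stood in opposite orders at the 2 stages, as for TFAP2B. DLX5 fell at D28 (log2 fold change -1.84 ± 0.18 SE, adjusted p = 3.195e-07). At passage 2, 3 of the 6 rose and none fell.

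Crest specifiers and early crest genes moved both ways, with 5 rises and 3 falls of 13 at P4 (median 0.04), 6 rises and 2 falls at D28 (median 0.72) and 2 rises at passage 2 (median -0.06). ETS1, a factor of cranial crest and of endothelium, rose most at P4 (log2 fold change 3.98 ± 0.52 SE, adjusted p = 2.145e-05). ERBB3, a neuregulin receptor, rose most at D28, from 0.480 and 0.503 CPM in WT to 22.3 and 48.6 CPM in dKO cells (log2 fold change 6.09 ± 0.43 SE, adjusted p = 1.03e-08). EDNRB, the endothelin receptor of crest and of radial glia, fell at both stages, with log2 fold changes of -2.84 ± 0.58 (SE; adjusted p = 0.00601) at P4 and -2.89 ± 0.48 (SE; adjusted p = 0.00185) at D28, where it had 43.2 and 10.2 CPM in dKO against 182 and 201 in WT cells. At passage 2 the larger of the 2 rises was that of CDH6, which did not pass adjustment (log2 fold change 1.70 ± 0.42 SE, adjusted p = 0.105).

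In the EMT and adhesion list, 2 of 7 genes rose and 2 fell at P4, and 3 rose and none fell at D28. FN1, which encodes fibronectin, rose most at P4, from 216 and 253 CPM in WT to 2090 and 2154 CPM in dKO NPCs (log2 fold change 3.18 ± 0.20 SE, adjusted p = 1.41e-07), and it was the 1 gene of the list called at passage 2 (1.12 ± 0.19 SE, adjusted p = 0.0103). ZEB2, an E-cadherin repressor that is also used in neural progenitors, fell at P4 (log2 fold change -2.55 ± 0.12 SE, adjusted p = 1.71e-10). At D28 CDH1 itself, which encodes E-cadherin and marks epithelium, rose most (log2 fold change 4.67 ± 0.53 SE, adjusted p = 0.000152), with 72.7 and 213 CPM in dKO against 5.40 and 5.84 in WT cells, where SNAI2 was also called higher. As background, E-cadherin is lost in an EMT and ZEB2 promotes one.

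Crest-derived mesenchyme genes rose in 1 and fell in 2 of 5 tested cases both at P4 and at D28. PDGFRA, a receptor of mesenchymal cells, rose at both (log2 fold changes 2.96 ± 0.45, adjusted p = 4.96e-05, and 2.96 ± 0.37, adjusted p = 4.4e-06). DLX1, used in branchial arch mesenchyme and in forebrain interneurons, fell at both (log2 fold changes -3.55 ± 0.67, adjusted p = 0.00366, and -6.04 ± 0.55, adjusted p = 5.52e-05). At passage 2, 2 of the 5 rose and 2 fell, with a median log2 fold change of 1.08. Of all tested genes, 2.59% rose and 1.83% fell there. DLX2 fell most (log2 fold change -2.27 ± 0.39 SE, adjusted p = 0.00689) and was the 1 gene of the list that passed adjustment. At D28 the 2 dKO samples had 10.7 and 0.965 CPM of DLX1 and the WT samples 369 and 343. Of the crest-derived lineages, no gene was called at passage 2, and 1 rose and 1 fell of 6 at P4, a share near that over all tested genes. At D28, 2 of the 6 rose and 2 fell, and all 4 calls passed adjustment, where 12.4% of all tested genes rose and 11.7% fell. DCT, a pigment cell gene also used in forebrain, fell at P4 (log2 fold change -3.75 ± 0.26 SE, adjusted p = 9.77e-09) and rose at D28 (4.72 ± 0.29 SE, adjusted p = 1.68e-09). PMEL, another pigment cell gene, was called higher at P4 without passing adjustment (1.27 ± 0.55 SE, adjusted p = 0.0835).

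Markers of other cell types moved with the genotype too, and their part in the results above was not tested. In NPCs at P4 all 5 tested neuron markers fell, with a summed level over 6 markers of 703 and 723 CPM in dKO against 3810 and 4332 in WT, and at D28 all 5 fell, from 3203 and 3202 to 927 and 521 CPM. Of the fibroblast and smooth muscle markers, 6 of 6 tested were called higher at passage 2, 5 at P4 and 3, with 1 lower, at D28. At passage 2, where 2.59% of all tested genes were called higher, 3 of the 6 calls passed adjustment. The summed level of these markers over 7 genes was 1518 and 1931 CPM in dKO against 266 and 690 in WT NPCs at passage 2. At P4 it was 1939 and 1922 CPM in dKO against 233 and 247 in WT NPCs, of which DCN, a defining fibroblast gene, had only 6 and 2 counts in dKO. All 4 tested markers of epidermis and placode rose at P4, from a summed 25.1 and 23.1 CPM to 515 and 491 CPM over 9 genes, almost all of it from KRT8 and KRT18, while TP63 had 1 and 3 counts and KRT14 none there. The floor plate gene SHH, which marks the ventral pole of the same axis, had 0.234 and 0.245 CPM in dKO against 2.67 and 5.91 in WT NPCs at P4, and 0.485 and 0.193 CPM in dKO against 62.4 and 63.5 in WT cells at D28. FOXA2 and NKX2-2, which define the floor plate and its neighbouring domain, had no counts in any sample.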

How the data were processed

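Per the labels and the study's methods, the authors extracted RNA with TRIzol, sequenced TruSeq libraries on an Illumina NextSeq, aligned reads to hg38 with HISAT2 (2.0.4), processed them with SAMtools (1.3.1) and counted them per Ensembl gene with htseq-count (0.6.0). The deposited values are raw counts per gene for 12 samples. The annotation release and the strand setting are not given in the sources used here. Identifiers were matched to symbols with GENCODE v44 (57532 of 58302 genes, 98.7%, holding 99.8% of counts).

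The 13454 genes that averaged 20 or more counts across the samples were fitted with edgeR (4.0.16 in R 4.3.3; TMM scaling, robust quasi-likelihood test) in a model of 6 group means, without a block. Calls needed an unadjusted p under 0.05 and a fold change over 2, and adjusted p-values are Benjamini-Hochberg values from edgeR over all 13454 genes. SE denotes the standard error on the log2 scale. A ratio or fold against a group with 3 counts or fewer was computed from summed counts, with a floor of 3 counts over the group where it had none and an exact 95% interval otherwise; these intervals cover counting error only. An exact permutation test of 2 against 2 samples cannot give a p under 0.333. P-values and SE rest on a spread between samples within groups that is estimated for each gene over all 6 groups. They measure no other spread. The 2 dKO-D28 samples lay further apart than those of the other groups. At D28 the p-values and SE may therefore understate the spread of that group.

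The 10 genes and the gene lists were chosen with earlier results of these data known. Genes named beside the 10 were the targeted genes, the called gene with the largest rise and with the largest fall of each list in each comparison of genotypes, the most similar protein-coding gene by Pearson's r, overlapping or adjacent genes and markers of cell types; others are named as chosen after their values were seen. A few genes that this rule selects are counted in their lists but not reported here by name. The fit was tested on simulated counts. Alternatives were DESeq2 (1.42.0), adjusted calls, a fit of only the groups compared, other count filters, correction for GC content and length, a replicate block and leaving out each sample. The labels name no batch, so no within-batch value could be computed. RPKM used the summed exon length of GENCODE v44.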

Additional observations from a re-analysis of the deposited data

Results flagged for a closer look

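The values below are differences between the knockout effect at a later stage and that at passage 2 on the log2 scale, taken as a contrast of the edgeR fit, for the 10 genes and the genes named by rule in the crest and dorsal lists. Values are given where the call rule was met before adjustment and each of the 4 groups had more than 3 counts, so that a gene such as BMP4 is not in the P4 list below. Its difference between P4 and passage 2 was 4.189 (edgeR, adjusted p = 0.00905), with 3 counts in WT NPCs at P4. The 2 families of differences share their passage 2 samples, which had the fewest counts, so their values are not independent. Of the 57 tested genes of the crest and dorsal lists, 22 met the rule between P4 and passage 2 and 32 between D28 and passage 2. Over all tested genes, 19.3% and 23.2% met it in either direction.

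Among the 10 factors, SNAI2 differed by 1.948 and FOXC1 by 2.106 between P4 and passage 2, and SNAI2 by 2.71 between D28 and passage 2. These are descriptive, since the genes were chosen on their values. The larger effect of SNAI2 came with a lower level in WT cells at the later stages, that of FOXC1 at P4 with a higher level in dKO NPCs.

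Between P4 and passage 2 the knockout effect was more positive for GBX2 (2.822), ETS1 (2.763), SMAD6 (2.442), GDF10 (2.407), FN1 (2.059), ID1 (1.901) and PDGFRA (1.879). It was more negative for DCT (-4.548), LHX9 (-2.249), EDNRB (-2.163) and ZEB2 (-1.706). The differences of GBX2, GDF10, EDNRB and LHX9 did not pass Benjamini-Hochberg adjustment.

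Between D28 and passage 2 the effect was more positive for PMEL (4.761), DCT (3.919), BMP4 (3.834), ID1 (3.171), FN1 (2.616), SMAD6 (2.515) and PDGFRA (1.875). It was more negative for DLX1 (-4.198), DLX5 (-2.865), EDNRB (-2.214) and DLX2 (-2.022). All of these but EDNRB passed adjustment. The BMP-responsive genes ID1 and SMAD6, the matrix gene FN1 and the receptor gene PDGFRA were more positive at both later stages, as was BMP4 with its few counts, EDNRB was more negative at both, and DCT changed sign between them.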

How the results depend on the processing

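Of 143 alternative counts of calls, 127 stayed within 1.5 times the reported one. Of 350 alternative values of the called folds of the 10 genes, 349 kept their direction and 328 their call; the exception in direction was PAX7 in WT-D28 cells against WT NPCs, which is 0 without WT NPC sample 2. With adjusted p-values, 0 of the 10 genes were called at passage 2 and 3 in dKO-D28 cells against dKO NPCs, and 7 of the other crest and dorsal genes at passage 2. DESeq2 called 6 of the 10 genes, in place of 2, for the difference between D28 and passage 2. A fit of only the groups compared called 3 in dKO-D28 cells against dKO NPCs. When all genes counted at least 1 time were fitted, 4 were called for the difference between D28 and passage 2. A minimum of 10 counts in every sample left none of the 10 genes and gave 7, 21 and 16 calls of the other crest and dorsal genes at passage 2, P4 and D28; fewer genes are tested by its construction.

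Leaving out each sample in turn gave 7 calls among the 10 genes at P4 in every case, 8 to 9 at D28 and 0 to 2 at passage 2, with 0 without WT NPC sample 1. For the other crest and dorsal genes it gave 38 to 39 at P4, 33 to 43 at D28 and 8 to 17 at passage 2, with 8 without WT NPC sample 1. It gave 1 to 3 calls in WT NPCs at P4 against passage 2, 1 to 2 in WT-D28 cells, 5 in dKO NPCs at P4 and 4 to 8 in dKO-D28 cells. It gave 0 to 3 for the difference between P4 and passage 2 and 1 to 4 for that between D28 and passage 2. WT NPC sample 2 set the low ends of 1, 1, 0 and 1 in WT-D28 cells, WT NPCs at P4 and the 2 differences, and leaving out dKO-D28 sample 1 gave the 4. A group left with 1 sample is assumed to vary like the others. At passage 2 the calls of PAX7 and FOXC1 were lost without WT NPC sample 1 (log2 fold changes 1.35 and 0.66), and that of FOXC1 without dKO NPC sample 2 (0.97) and with DESeq2. MSX2 gained a call at passage 2 with DESeq2, in a fit of only the groups compared and with a filter of at least 1 count. The causes were not tested.

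Samples with the same replicate number did not in general deviate together (mean r of 0.018, -0.058 to 0.194 over 15 pairs of groups), so no general pairing by number was seen. This check cannot exclude that some of the groups are paired. With the replicate number as a block, 2, 7 and 9 of the 10 genes were called at passage 2, P4 and D28, as without it, and 15, 41 and 37 of the other crest and dorsal genes, or 14, 40 and 37 with correction for GC content and length. Genes with a few counts at passage 2 are limited by depth.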

Other observations

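The roof plate and dorsal neural tube genes were also compared between D28 and passage 2 within each genotype, and the difference between the genotypes over the list was not tested. In WT-D28 cells 2 of the 13 tested genes rose and 6 fell, where 12.9% of all tested genes rose and 11.5% fell, with a median log2 fold change of -1.27 against 0.04 over all tested genes. In dKO-D28 cells 5 rose and 2 fell, where 4.01% and 3.14% of all tested genes did, with a median of 0.95 against 0.01. Of the 7 BMP-responsive genes, 4 fell and none rose in WT-D28 cells (median -1.39), and 2 fell and none rose in dKO-D28 cells (median -0.20).

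Glial and vascular markers were also measured. GFAP, an intermediate filament gene of astrocytes, had 21.7 and 23.6 CPM in WT against 6.32 and 9.81 in dKO NPCs at P4, and all 3 tested astrocyte markers fell there and at D28. KDR, which encodes a VEGF receptor, had 80.6 and 86.8 CPM in dKO against 2.00 and 3.85 in WT NPCs at P4, while the defining endothelial genes PECAM1 and CDH5 were at 3.05 CPM or below in every sample. CLIC6, the only tested marker of choroid plexus, an epithelium next to the roof plate, had 16.6 and 18.6 CPM in dKO against 0.334 and 0.257 in WT NPCs at P4, while TTR, which defines that tissue, was at 1.21 CPM or below in every sample.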
